A study of Mus musculus with 12 samples.

Results

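The genes described here are 35 mouse genes that copy DNA during S phase, supply its building blocks or rebuild chromatin behind the replication fork. They were taken by symbol, and every probe set of the array that the platform annotation assigns to 1 of these symbols and to no other gene was collected. A probe set is a group of short oligonucleotides on the array that together report 1 transcript. In all, 34 of the 35 genes had such a probe set, 76 of 45101 probe sets on the array. Chaf1a, a subunit of the histone chaperone CAF-1, was not analysed here because no probe set was named for it. A probe set was kept where 3 or more of the 12 arrays read above 70.5 intensity units, the median of every value deposited, and 68 of the 76 remained, and all 34 genes kept at least 1. For each gene the remaining probe set with the highest mean log2 signal stood for the gene in the tests, leaving out sets marked as cross-hybridizing (_x_at) where another set was left, and 11815 genes were tested in all.

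The series asks how the transcription factors STAT5A and STAT5B act in the granulocyte-forming response to GM-CSF, a cytokine of the myeloid lineage. RNA came from mice that had, or lacked, Stat5a and Stat5b in their blood cells, and each genotype was sampled untreated and treated. This gives 4 groups of 3 arrays: control cells without and with treatment, and knockout cells without and with treatment. The treatment field of the labels holds the letters GMP with a yes or a no, and some untreated titles carry the same letters, so the agent, its dose and its duration are not given in the sources used here. The promoter that drove the deletion, the strain, the age and the number of mice per array are not given there either. Titles place the arrays on 3 dates, each with all 4 groups, and of the titles of date 2 that of the treated knockout array bears a different number. Whether the arrays of a group stand for different mice is not stated, so the p-values speak only of the spread among these arrays, and some of it may be technical.

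Replication starts when the origin recognition complex, with CDC6 and CDT1, loads the ring-shaped MCM2-7 helicase on DNA in G1. At the start of S phase the ring is activated with CDC45 and the GINS complex. Primase and DNA polymerase alpha lay down primers, polymerases epsilon and delta extend them, and PCNA, the sliding clamp loaded by replication factor C, holds the polymerases on the template. FEN1 and DNA ligase 1 finish the lagging strand, and ribonucleotide reductase, thymidine kinase, thymidylate synthase and dUTPase set the supply of deoxynucleotides. Many of these genes are textbook targets of E2F transcription factors and are transcribed mostly in late G1 and S phase, so their messenger RNA is widely read as a sign of cycling cells, and granulocyte-monocyte progenitors of the bone marrow cycle actively.

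Because the members are commonly described as E2F targets, their promoters were searched for 4 E2F-type words, TTTCCCGC, TTTGGCGC, TTTGCCGC and TTTCGCGC, and for the word CCAAT, which is the core of the NF-Y binding site. Both strands were searched in windows from 250 bases before to 50 bases after each annotated start, taken from RefSeq on GRCm38.p6, and overlapping matches were counted. For 31 of the 35 members the table held a window, and 13 of these 31 (41.9%) had at least 1 E2F-type word. Among all 27025 genes with a RefSeq window the share was 2.61%, and among the 9623 genes tested on the arrays that had a window it was 4.72%. CCAAT stood in the windows of 20 of the 31 members (64.5%), against 41.1% of all genes and 42.6% of the genes tested. Such a match is only a run of letters and shows no binding. The 150 bases before the start are printed for 4 genes, with E2F-type words and CCAAT in capitals. Tk1 and Rrm2 had the largest estimated falls in control cells, Cdc6 carries an E2F-type word and was called in knockout cells, and Mcm6 carries 3 E2F-type words and 2 of CCAAT in this stretch. The stretches lie at chr11:117826015-117826164 on the minus strand, chr12:24708104-24708253 on the plus strand, chr11:98908001-98908150 on the plus strand and chr1:128359706-128359855 on the minus strand, each written 5' to 3' toward its gene.
Tk1: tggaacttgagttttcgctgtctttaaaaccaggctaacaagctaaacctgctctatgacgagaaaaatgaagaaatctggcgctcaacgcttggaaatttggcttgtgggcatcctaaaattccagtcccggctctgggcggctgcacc
Rrm2: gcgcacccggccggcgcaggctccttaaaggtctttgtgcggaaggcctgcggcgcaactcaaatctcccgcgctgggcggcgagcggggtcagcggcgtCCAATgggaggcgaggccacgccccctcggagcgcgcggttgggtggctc
Cdc6: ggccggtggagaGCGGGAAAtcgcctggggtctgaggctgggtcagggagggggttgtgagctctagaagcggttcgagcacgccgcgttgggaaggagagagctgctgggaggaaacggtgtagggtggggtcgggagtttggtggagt
Mcm6: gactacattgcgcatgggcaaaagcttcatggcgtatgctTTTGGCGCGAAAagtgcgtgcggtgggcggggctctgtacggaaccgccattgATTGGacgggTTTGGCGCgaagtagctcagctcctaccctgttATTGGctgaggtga
The stretch of Tk1 holds none of the searched words and that of Rrm2 holds 1 CCAAT. Cdc6 has 1 E2F-type word, GCGGGAAA, at 138 to 131 bases before the start. Mcm6 has 3 E2F-type words, of which a pair overlaps, and 2 copies of CCAAT in the reverse reading, ATTGG.

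As a check on the labels, Stat5a and Stat5b were read on every array. Stat5a lay between 375 and 1152 intensity units on the 6 control arrays and at most at 101 on the 6 knockout arrays. Stat5b lay at 287 or above on the control arrays and at most at 60.5 on the knockout arrays. Intensities of every array had been scaled to a trimmed mean of 500. Markers of granulocyte-monocyte progenitors were bright in all 4 groups, for example Mpo, which encodes myeloperoxidase, with a lowest array of 15309. The cell type itself is not named plainly in the labels. The 4 arrays of date 2 stood apart: the ratio of 3' to 5' signal of Actb, which goes up where transcripts or their labelled copies are truncated, was 20.8 to 266 there and 1.14 to 2.05 on the other dates.

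Treatment of control cells was followed by lower signals across the replication genes. Of 34 genes, 5 fell and 0 rose at a Benjamini-Hochberg adjusted p under 0.05 in limma, against 2.56% of all 11815 genes called lower and 4.21% called higher (6.77% in all). The 5 genes were Tk1, Rrm2, Dut, Lig1 and Mcm2. Estimates were below 0 for 33 of 34 genes, against 53.2% of all genes tested, and Orc6 was the exception at 0.08 ± 0.28 (SE). The median log2 change of the 34 genes was -0.65, against -0.04 for all genes. On dates 1, 2 and 3 the median of the 34 was -0.52, -0.88 and -0.46. In 27 of 34 genes the treated array was lower on all 3 dates, against 27.6% of all genes, and in 0 of 34 it was higher on all 3, against 23.1%. At an unadjusted p under 0.05 there were 19 lower and 0 higher, against 11.8% and 11.5% of all genes. In these bulk samples fewer cycling cells and less of a transcript per cell cannot be told apart.

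Which genes were called depended on single arrays. Without 1 array the number of genes called in control cells was 0 to 8: 0 without the control untreated or control treated array of date 1 or the control treated array of date 3, and 1 without the control untreated array of date 2 or 3. It was also 1 without the knockout untreated array of date 1 or 3, 2 without the control treated array of date 2 or the knockout treated array of date 1 or 3, 3 without the knockout untreated array of date 2, and 8 without the knockout treated array of date 2. The share of all genes called lower moved over these fits too. It was 0.576% without the control treated array of date 3 and 3.8% without the knockout treated array of date 2, the lowest and highest. Over these 12 fits the median log2 change of the 34 genes lay between -0.77 and -0.41. Without the arrays of date 2 there were also 5 calls, of Tk1, Lig1, Pola1, Pold1 and Gins1, against 3.88% of all genes called lower. The median was then -0.48, with 33 of 34 estimates below 0. Without the date block the median and the 33 estimates were unchanged by construction and 0 of the 34 genes were called, against 0.254% of all genes called lower.

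Treatment of knockout cells was also followed by lower signals across the replication genes. Here 5 of 34 genes fell and 0 rose, against 4.45% of all genes called lower and 6.73% called higher (11.2% in all). The 5 genes were Gins1, Dut, Cdc6, Mcm2 and Lig1. Estimates were below 0 for 31 of 34 genes, against 51.8% of all genes, and the exceptions were Cdc45, Rfc3 and Tyms. The median log2 change was -0.49, against -0.02 for all genes, and on the 3 dates it was -0.43, -0.73 and -0.35. In 24 of 34 genes the treated array was lower on all 3 dates and in 0 it was higher on all 3, against 27.0% and 24.5% of all genes. At an unadjusted p under 0.05 there were 12 lower and 0 higher, against 13.4% and 13.8% of all genes. Without 1 array the count was 0 to 9: 0 without the knockout untreated array of any date or the knockout treated array of date 2, 3 without the knockout treated array of date 1, and 9 without the control treated array of date 2. The share of all genes called lower ran from 1.18% without the knockout untreated array of date 3 to 6.52% without the control treated array of date 2. Over these fits the median of the 34 genes lay between -0.62 and -0.39. Without date 2 there were 5 calls, of Tk1, Lig1, Dut, Gins1 and Rfc5, against 4.89% of all genes called lower. The median was then -0.45, with 30 of 34 estimates below 0. Without the date block there were 0 calls, against 0.516% of all genes called lower.

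**Figure D1:**
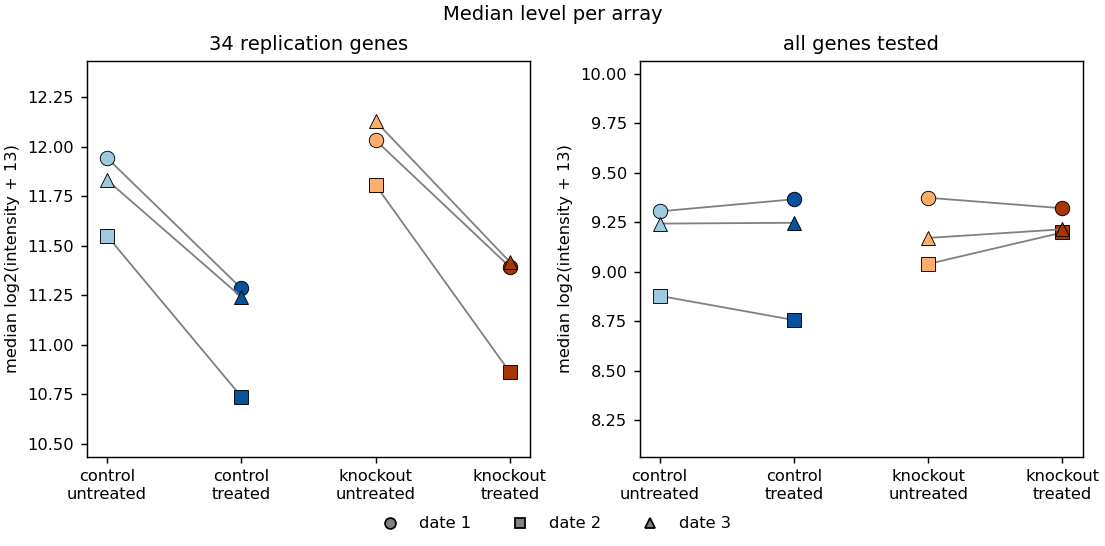
Median of log2(intensity + 13) per array over the 34 replication genes (left) and over all 11815 genes tested (right), by group, with a line joining the untreated and treated array of a genotype and date. Both vertical axes span the same log2 range, and each of the 6 lines on the left runs downward.

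The plot of medians by array shows the same on each date. In control cells the median level of the 34 genes went from 11.94 to 11.28 on date 1, from 11.55 to 10.74 on date 2 and from 11.83 to 11.24 on date 3, in log2 of the intensity plus 13. In knockout cells it went from 12.03 to 11.39, from 11.81 to 10.86 and from 12.13 to 11.42. The treated arrays of both genotypes lay below all 6 untreated arrays. The median over all genes tested lay between 8.76 and 9.37 on the 12 arrays, lowest on date 2 in control treated cells.

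Origin recognition and helicase loading were covered by Orc1, Orc6, Cdc6 and Cdt1. Cdc6, the loader that joins the origin complex in G1, read 3763, 2520 and 3502 in control untreated cells on dates 1 to 3 and 2118, 1295 and 2496 in control treated cells. Cdc6 in knockout cells read 4277, 2647 and 4622 untreated and 2499, 945 and 2834 treated. Each treated array was below the untreated array of its date, and in control cells the groups did not overlap. The log2 change was -0.75 ± 0.24 in control cells (SE, limma adjusted p = 0.0879) and -0.98 ± 0.24 in knockout cells (adjusted p = 0.0278). Cdt1, which brings the MCM ring to the origin, changed by -0.16 ± 0.21 and -0.13 ± 0.21. Its date 2 arrays lay between 21695 and 26780, above the 7386 to 11537 of the other dates. Orc1, the largest subunit of the origin recognition complex, changed by -0.67 ± 0.44 and -0.39 ± 0.44, and Orc6, the smallest, by 0.08 ± 0.28 and -0.18 ± 0.28. In knockout cells Orc1 was higher after treatment on dates 1 and 3 and lower on date 2 alone, where it went from 784 to 184. Without date 2 the knockout estimates of Orc1 and Orc6 were above 0, at 0.42 and 0.11. For these 4 genes the median was -0.41 in control and -0.28 in knockout cells, and without date 2 it was -0.29 and 0.02.

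The 6 subunits of the MCM ring all had estimates below 0 in both genotypes, with medians of -0.75 in control and -0.40 in knockout cells. Without date 2 the medians were -0.44 and -0.43. Mcm2 read 7864, 15086 and 6541 in control untreated cells on dates 1 to 3 and 3622, 6973 and 4072 in control treated cells. Mcm2 in knockout cells read 6646, 13366 and 9444 untreated and 3011, 5772 and 5525 treated. Each treated array was below the untreated array of its date, and date 2 was the brightest in each group. The fall was -0.97 ± 0.25 (limma adjusted p = 0.0475) in control cells and -1.04 ± 0.25 (adjusted p = 0.0273) in knockout cells, which puts treated cells at 51.1% and 48.6% of the untreated level. Mcm5 changed by -0.97 ± 0.30 (adjusted p = 0.0818) in control cells and -0.38 ± 0.30 in knockout cells. Mcm3 changed by -0.89 ± 0.40 and -0.42 ± 0.40, Mcm4 by -0.60 ± 0.24 in both genotypes, Mcm6 by -0.61 ± 0.24 and -0.23 ± 0.24, and Mcm7 by -0.20 ± 0.23 and -0.18 ± 0.23. Of the 6 genes, Mcm2 was called in either genotype and the other 5 in neither. Mcm2 was called in 3 of 12 control and 7 of 12 knockout fits that left out 1 array. Without date 2 it was called in neither genotype (limma adjusted p = 0.0963 and 0.0758).

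Among the factors that turn the loaded ring into a working helicase, Gins1 and Gins2 encode subunits of the GINS complex. Gins1 read 3430, 5207 and 3117 in control untreated cells and 1872, 2832 and 1398 in control treated cells. Gins1 in knockout cells read 3674, 4453 and 3556 untreated and 1865, 1367 and 1751 treated. Untreated and treated groups did not overlap in either genotype. The change was -0.96 ± 0.27 (adjusted p = 0.0613) in control cells, and the fall in knockout cells was -1.23 ± 0.27 (adjusted p = 0.0194). It was called in 8 of the 12 knockout fits that left out 1 array. Gins2 changed by -0.12 ± 0.30 and -0.64 ± 0.30. Mcm10, which acts early in origin firing, changed by -0.26 ± 0.24 and -0.46 ± 0.24. Cdc45, part of the active helicase with MCM and GINS, changed by -0.11 ± 0.22 and 0.07 ± 0.22, with date values of 0.25, -0.14 and -0.44 in control cells and 0.40, -0.22 and 0.02 in knockout cells, so its dates did not share a direction.

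**Figure D2:**
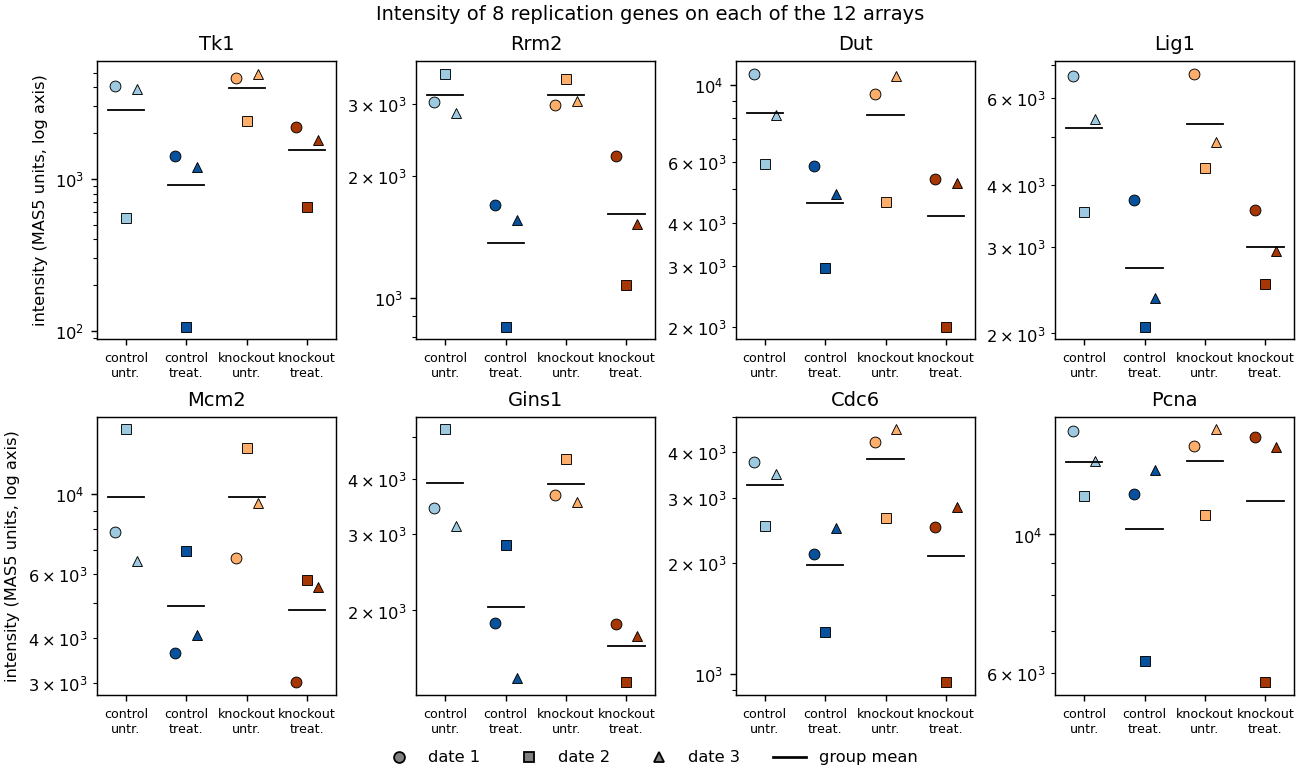
Intensity (MAS5 units, log axis) of Tk1, Rrm2, Dut, Lig1, Mcm2, Gins1, Cdc6 and Pcna on each of the 12 arrays, by group, with the symbol giving the array date and the bar the group mean. In 7 of the panels each treated symbol lies below the untreated symbol of its genotype and date, and in the Pcna panel the date 1 pair of the knockout runs the other way.

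The polymerases and primase had 4 of 4 estimates below 0 in either genotype and 0 calls, with medians of -0.78 and -0.57. Pola1, the catalytic subunit of the priming polymerase alpha, read 2172, 1222 and 1864 in control untreated cells and 948, 701 and 1006 in control treated cells. Pola1 in knockout cells read 1555, 2398 and 1961 untreated and 1071, 1448 and 1058 treated. The groups did not overlap in either genotype, and the change was -0.95 ± 0.29 (adjusted p = 0.0828) and -0.71 ± 0.29 (adjusted p = 0.151). Prim1, the small primase subunit, changed by -0.64 ± 0.19 and -0.37 ± 0.19, and Pole, the leading-strand polymerase, by -0.66 ± 0.21 and -0.67 ± 0.21. Pold1, the catalytic subunit of polymerase delta, changed by -0.90 ± 0.53 and -0.48 ± 0.53. Its date 2 control arrays read 375 untreated and 177 treated, against 1310 to 3715 on dates 1 and 3 over all groups, and its standard error was the largest of the 34 genes.

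Pcna, the clamp itself, was lower after treatment on each date in control cells and on dates 2 and 3 in knockout cells. It read 14622, 11520 and 13096 in control untreated cells, 11623, 6272 and 12698 in control treated cells, 13869, 10742 and 14721 in knockout untreated cells and 14316, 5800 and 13807 in knockout treated cells. The change was -0.42 ± 0.25 (adjusted p = 0.364) and -0.31 ± 0.25 (adjusted p = 0.472), and treated and untreated groups overlapped in both genotypes. Of the clamp loader subunits, Rfc5 changed by -1.24 ± 0.42 (adjusted p = 0.108) and -0.78 ± 0.42, Rfc3 by -0.75 ± 0.31 and 0.05 ± 0.31, and Rfc4 by -0.22 ± 0.31 and -0.51 ± 0.31. Rpa2, a subunit of the protein that coats single-stranded DNA, changed by -0.60 ± 0.28 and -0.56 ± 0.28. None of these 5 genes was called in either genotype. Date 2 carried much of the Rfc5 value in control cells, where the date values were -0.64, -2.45 and -0.62. Without date 2 Rfc5 changed by -0.63 (limma adjusted p = 0.0809) in control cells and by -0.74 (adjusted p = 0.0490) in knockout cells. The medians of the 5 genes were -0.60 and -0.51, and without date 2 -0.42 and -0.23.

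DNA ligase 1, which seals Okazaki fragments on the lagging strand, fell in both genotypes. Lig1 read 6673, 3522 and 5451 in control untreated cells and 3728, 2063 and 2361 in control treated cells. Lig1 in knockout cells read 6731, 4335 and 4889 untreated and 3554, 2515 and 2935 treated, without overlap. The fall was -0.94 ± 0.20 (limma adjusted p = 0.0232) in control cells and -0.81 ± 0.20 (adjusted p = 0.0290) in knockout cells. It was called in 8 of 12 control and 5 of 12 knockout fits that left out 1 array. Fen1, the flap nuclease that trims these fragments before ligation, changed by -0.79 ± 0.40 and -0.32 ± 0.40, and its date 2 arrays read 139 to 893 against 1904 to 3272 on the other dates.

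The enzymes of deoxynucleotide supply held 3 of the 5 calls in control cells. Tk1, the S-phase thymidine kinase of the salvage route, read 4108, 549 and 3895 in control untreated cells and 1410, 106 and 1203 in control treated cells. Tk1 in knockout cells read 4576, 2413 and 4913 untreated and 2193, 650 and 1798 treated. Date 2 was far lower in each group, and the treated array was lower on each date in both genotypes. The fall in control cells was -1.82 ± 0.46 (limma adjusted p = 0.0433), to 28.4% of the untreated level, and the change in knockout cells was -1.46 ± 0.46 (adjusted p = 0.0689). Without date 2 both passed the test, at -1.61 (adjusted p = 0.00578) and -1.25 (adjusted p = 0.0121). Tk1 was called in only 2 of 12 control and 1 of 12 knockout fits that left out 1 array.

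Rrm2, the regulated small subunit of ribonucleotide reductase, read 3042, 3570 and 2859 in control untreated cells and 1692, 848 and 1554 in control treated cells. Rrm2 in knockout cells read 2987, 3461 and 3062 untreated and 2232, 1073 and 1520 treated. The groups did not overlap in either genotype. The fall in control cells was -1.26 ± 0.30 (limma adjusted p = 0.0388), and the change in knockout cells was -1.03 ± 0.30 (adjusted p = 0.0542). Rrm2 was called in 3 of 12 control and 2 of 12 knockout fits that left out 1 array. Rrm1, the large subunit, changed by -0.61 ± 0.24 and -0.60 ± 0.24. Dut, which encodes the dUTPase that keeps uracil out of DNA, read 10760, 5925 and 8175 in control untreated cells and 5847, 2957 and 4852 in control treated cells. Dut in knockout cells read 9427, 4604 and 10579 untreated and 5350, 2006 and 5206 treated. It fell by 0.88 ± 0.23 (limma adjusted p = 0.0476) in control cells and by 1.01 ± 0.23 (adjusted p = 0.0207) in knockout cells, and was called in 1 of 12 control and 8 of 12 knockout fits without 1 array.

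Tyms encodes thymidylate synthase, which makes thymidine monophosphate. Its tested probe set read 90.3 to 257 over the 12 arrays, close to the filter of 70.5, and changed by -0.07 ± 0.25 in control cells and 0.53 ± 0.25 (adjusted p = 0.209) in knockout cells. A second dim probe set changed by -0.78 and -0.72, the other 2 did not pass the filter, and 1 more was annotated to both Tyms and Tyms-ps and was not used. These signals lay near the filter, where MAS5 values are unstable.

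The genes that act on chromatin behind the fork were grouped with Slbp, which acts on histone messenger RNAs instead. Estimates were below 0 in 4 of 4 cases in either genotype, with 0 calls. Uhrf1, which reads hemimethylated DNA and recruits the maintenance methyltransferase, changed by -0.73 ± 0.32 and -0.68 ± 0.32. Dnmt1, that methyltransferase, changed by -0.31 ± 0.23 and -0.63 ± 0.23. Chaf1b, a subunit of the chaperone that deposits histones on new DNA, changed by -0.64 ± 0.21 (adjusted p = 0.0971) and -0.46 ± 0.21. Slbp, which binds the stem-loop of histone messenger RNAs, changed by -0.53 ± 0.22 and -0.44 ± 0.22. For Chaf1b the treated and untreated groups did not overlap in either genotype.

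Over all 34 genes, 9 in control cells and 12 in knockout cells had treated arrays that all lay below the untreated ones, against 7.68% and 9.90% of all genes. In control cells these were Mcm6, Gins1, Cdc6, Orc1, Rrm2, Pola1, Dut, Chaf1b and Slbp. In knockout cells they were Mcm2, Gins1, Gins2, Rrm2, Lig1, Pola1, Rfc5, Rpa2, Tk1, Uhrf1, Chaf1b and Dnmt1. By the sets that stood for the genes, 0 of 34 had treated arrays all above the untreated ones, against 8.35% and 11.0% of all genes. The dimmer second set of Cdc45 did have them all above, in both genotypes.

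**Figure D3:**
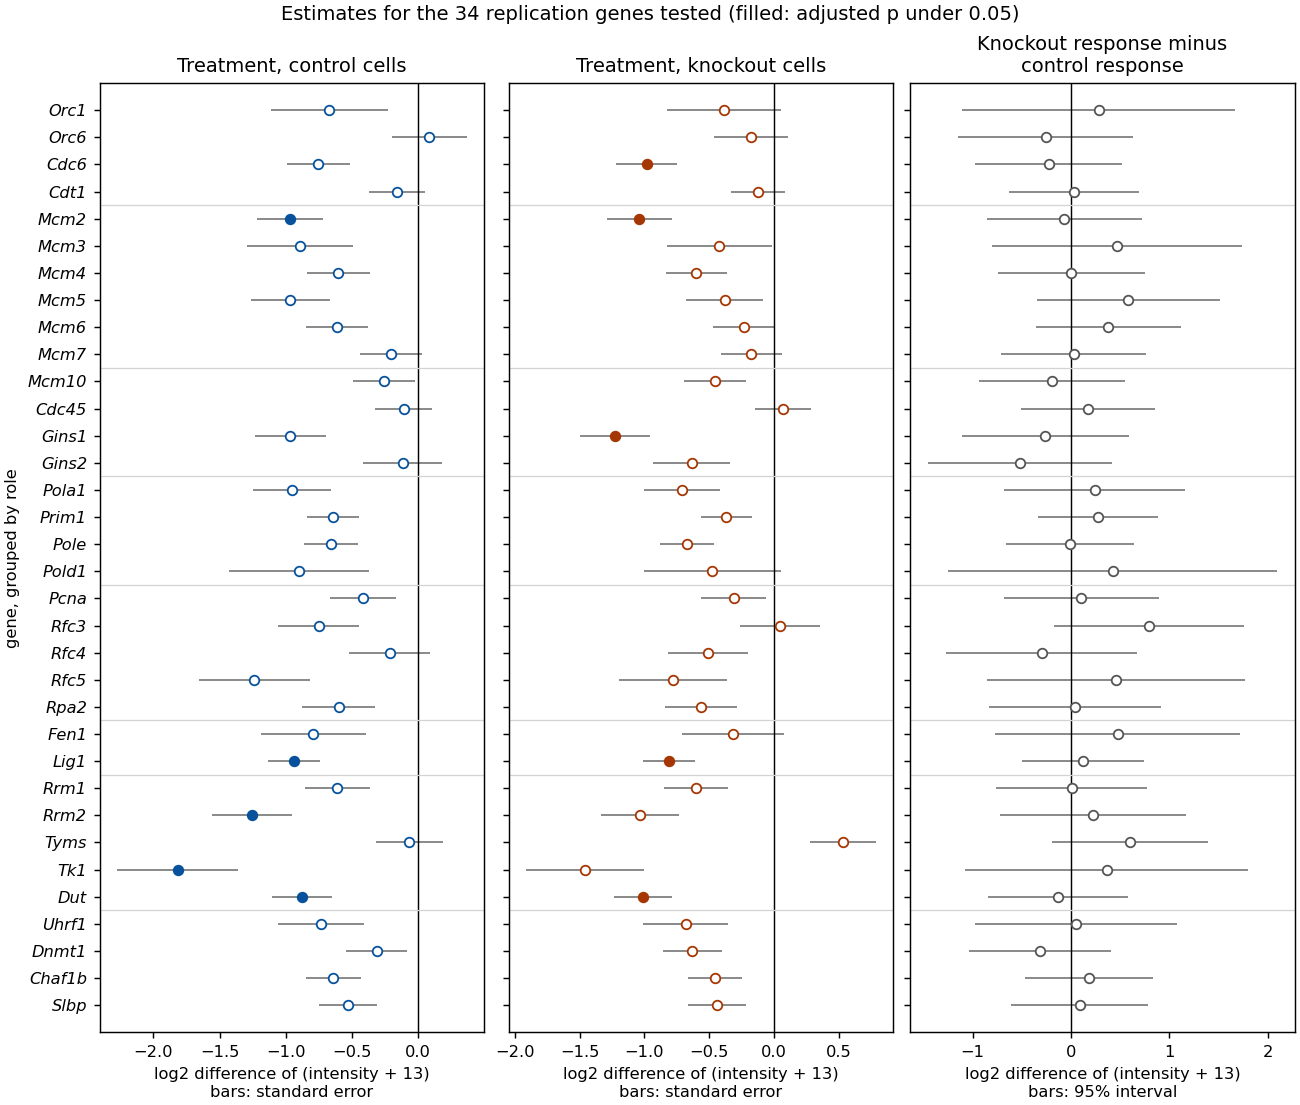
Estimated log2 differences for the 34 replication genes, grouped by role from origin recognition (top) to chromatin (bottom). Left and middle: treated minus untreated in control and in knockout cells, with standard errors, filled where the adjusted p is under 0.05. Right: the knockout response minus the control response with 95% confidence intervals, all of which include 0.

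The difference between the responses of the 2 genotypes was tested gene by gene in the same fit, and 0 of 34 genes passed, as did 0 of all 11815 genes (limma, adjusted p under 0.05). At an unadjusted p under 0.05 there were 0 of 34, against 1.15% of all genes higher and 1.31% lower. The median difference over the 34 genes was 0.10, against 0.03 for all genes. Estimates were above 0, the side of a weaker fall in knockout cells, for 24 of 34 genes and below 0 for 10, against 47.3% of all genes below 0. This split was not stable: 17 of 34 were below 0 with arrays centred on the median. Below 0 were 21 of 34, with a median of -0.05, without the control treated array of date 2. The widest differences were those of Rfc3 at 0.80 (95% confidence interval -0.17 to 1.77), Tyms at 0.60 (-0.20 to 1.39) and Mcm5 at 0.58 (-0.35 to 1.52) on one side and Gins2 at -0.52 (-1.46 to 0.42) on the other. Date 2 carried much of the Rfc3 and Gins2 values. Without date 2 the differences were 0.39 for Rfc3, 0.41 for Tyms, 0.43 for Mcm5 and -0.16 for Gins2. That of Orc1 went the other way, from 0.28 to 0.82. Over the settings run Gins2 lay between -0.75 and 0.08, so its sign was not stable. For Lig1 the interval was -0.50 to 0.75, for Mcm2 -0.86 to 0.72, for Dut -0.85 to 0.58 and for Tk1 -1.08 to 1.80. The intervals reached a median of 0.79 to either side, and for 16 of 34 genes they stayed between -1 and 1. Differences in response that lie inside these intervals were not excluded by these arrays.

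Knockout and control cells were also compared directly. In untreated cells 0 of 34 genes were called, while 0.0169% of all genes were, and 0 of 34 had an unadjusted p under 0.05, against 1.59% of all genes lower and 0.626% higher. The median was 0.13, with 5 of 34 estimates below 0 against 51.0% of all genes, and date medians of 0.07, 0.24 and 0.13. Without the knockout untreated array of date 2 the median was 0.05 with 12 of 34 estimates below 0, without date 2 it was 0.08 with 6 of 34, and with the mean over probe sets it was 0.13 with 13 of 34. Tk1 at 0.87 ± 0.46 and Pold1 at 0.66 ± 0.53 were the highest, with date values of 0.16, 2.11 and 0.33 for Tk1 and 0.07, 2.07 and -0.17 for Pold1, so date 2 carried them. Gins2, Rpa2 and Chaf1b had all 3 knockout arrays above all 3 control arrays, against 1.55% of all genes, and 0 of the 34 had them all below, against 2.28%.

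In treated cells 0 of 34 genes were called, and 0.110% of all genes were. The median was 0.20, with date medians of 0.15, 0.31 and 0.27. Estimates were above 0 for 24 of 34 genes and below 0 for 10, against 49.2% of all genes below 0. At an unadjusted p under 0.05 there were 4 higher and 0 lower in knockout cells, against 5% and 4.72% of all genes. The 4 were Tk1 at 1.23 ± 0.46, Rfc3 at 0.97 ± 0.31, Mcm5 at 0.77 ± 0.30 and Cdc45 at 0.57 ± 0.22, with limma adjusted p of 0.506, 0.500, 0.506 and 0.506. On dates 1, 2 and 3 the values were 0.63, 2.48 and 0.57 for Tk1, 0.69, 1.99 and 0.21 for Rfc3, 0.32, 1.38 and 0.61 for Mcm5, and 0.61, 0.49 and 0.61 for Cdc45. By the set that stood for the gene, Cdc45 was thus about equal on the 3 dates, while date 2 was the largest for the other 3. The dimmer second set of Cdc45 went the other way. Its knockout array read below the control array on each date, in treated and in untreated cells, so the direction for Cdc45 depended on the probe set. The knockout array was higher on all 3 dates in 14 of 34 genes and lower in 1, against 16.5% and 15.9% of all genes. In untreated cells these were 10 and 0 of 34, against 13.3% and 13.5%. Among treated arrays the genotypes did not overlap for Pola1, higher in knockout cells (2.45% of all genes were), and Dnmt1, lower in them (3.74%). On date 2 the Actb 3' to 5' ratio was also the highest in the control treated array, at 266, and the part of this in the date 2 differences was not tested. These comparisons and the difference of responses share samples.

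**Figure D4:**
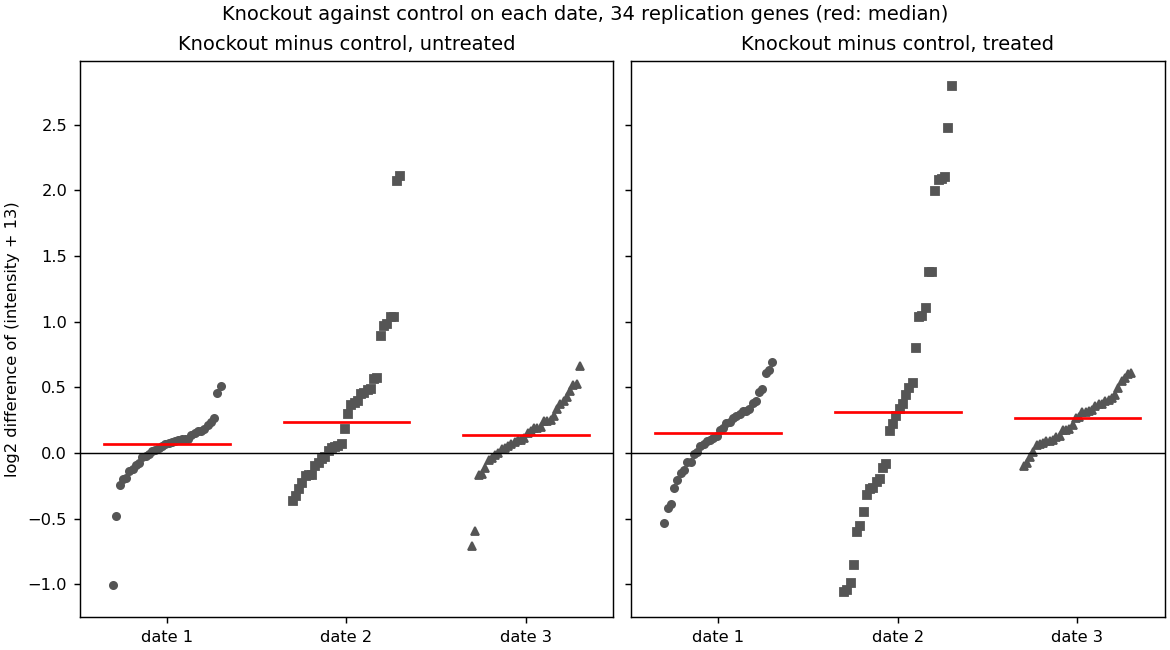
Knockout minus control log2 differences of the 34 replication genes on each date, untreated (left) and treated (right), with genes sorted by value within a date and the median in red. The spread is widest on date 2, where treated Pold1 reaches 2.79 and treated Tk1 2.48, and every median is above 0.

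Several members were read by more than 1 probe set, and the sets of a gene did not always give the same size of change. Tested singly, 59 of the 68 probe sets had estimates below 0 in control cells and 63 of 68 in knockout cells. Of these, 2 were called lower in control cells and 5 in knockout cells, against 1.54% and 2.89% of all probe sets tested. Of the 34 sets that did not stand for a gene, 26 had the sign of the standing set in control cells and 31 in knockout cells. For Mcm7 the standing set changed by -0.20 in control and -0.18 in knockout cells, and the dimmest of the other 3 by -1.31 and -0.61. For Mcm2 the second set changed by -1.50 and -0.76, and for Gins2 the second set changed by -0.88 and -0.80, where the standing set gave -0.12 and -0.64. A set of Rrm2 that is marked as cross-hybridizing changed by 0.06 and -0.21.

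The level of a set on date 2 also differed in direction between sets. For 13 of the 68 probe sets of members the 4 date 2 arrays all lay below the other 8 (19.1%, against 11.4% of all probe sets tested), and for 12 they all lay above (17.6%, against 9.11%). Fen1, Mcm3, Mcm5 and Mcm7 each had 1 or more sets of either kind. For Mcm7 the date 2 arrays of the standing set read 21857 to 39137 against 12686 to 16268 on the other dates, and those of the dimmest set read 192 to 2727 against 5562 to 11315. The 3' to 5' ratios given above moved with date, and their part in this was not tested.

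**Figure D5:**
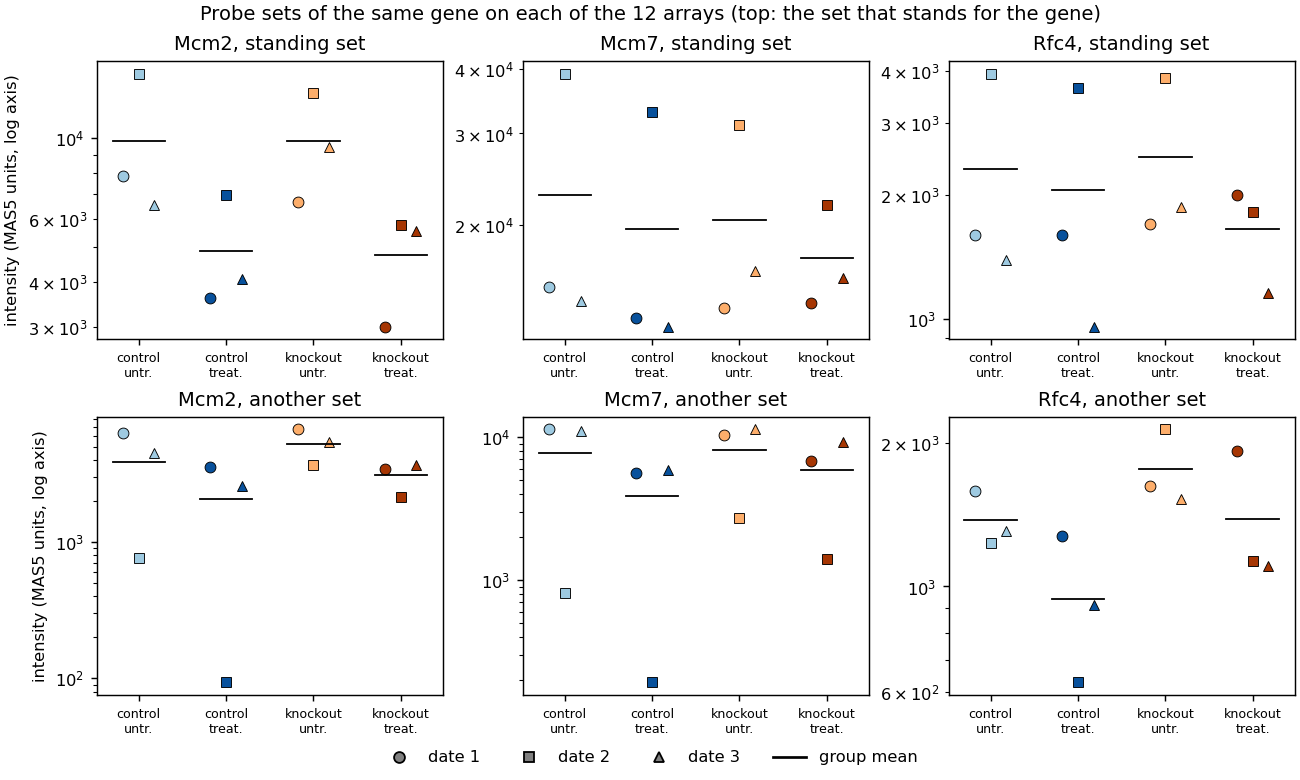
Intensity (MAS5 units, log axis) on each array for the probe set that stands for Mcm2, Mcm7 and Rfc4 (top) and for another probe set of the same gene (bottom), with the symbol giving the array date and the bar the group mean. The date 2 arrays (squares) of Mcm7 lie above the other dates in the top panel and below them in the bottom panel.

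The promoter words described above did not go with a clear split of the changes. The 13 members with an E2F-type word had a median log2 change of -0.75 in control and -0.42 in knockout cells, and the 17 tested members with a window but no such word had -0.61 and -0.46. Calls were 1 of 13 and 4 of 17 in control cells and 2 of 13 and 2 of 17 in knockout cells. These values are a description, with no test.

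Other genes of the pathway give the setting of these changes. Of 48 other genes of the replication machinery, 3 fell and 1 rose in control cells and 5 fell and 0 rose in knockout cells, with medians of -0.39 and -0.40. Of all genes tested, 2.56% were called lower and 4.21% higher in control cells, and 4.45% and 6.73% in knockout cells. The clamp loader subunit Rfc2 fell by 1.17 ± 0.22 (limma adjusted p = 0.0133) and by 0.92 ± 0.22 (adjusted p = 0.0254), from 3259 ± 736 to 1495 ± 569 (SD, n = 3) in control cells. The histone chaperone gene Asf1b and Rnaseh2a, a subunit of the nuclease that removes ribonucleotides from DNA, fell in both genotypes. Asf1b changed by -0.99 and -1.11 and Rnaseh2a by -0.86 and -0.71 in control and knockout cells. Mtbp, whose product acts in origin firing, rose by 1.17 ± 0.23 in control cells (adjusted p = 0.0165), and its estimate in knockout cells was 0.67 ± 0.23 (adjusted p = 0.0884). In knockout cells Pold2, the second subunit of polymerase delta, fell by 1.57 ± 0.39 (adjusted p = 0.0306) and the histone chaperone gene Nasp by 0.96 ± 0.26 (adjusted p = 0.0432).

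Another list held enzymes of nucleotide supply, mostly of de novo purine and pyrimidine synthesis. Of 26 tested, 6 fell and 1 rose in control cells and 10 fell and 1 rose in knockout cells, with medians of -0.53 and -0.83. The shares over all genes were 2.56% lower and 4.21% higher in control cells and 4.45% and 6.73% in knockout cells. Dhodh, the mitochondrial enzyme of pyrimidine synthesis, fell by 1.55 ± 0.24 (limma adjusted p = 0.00663) and by 1.56 ± 0.24 (adjusted p = 0.00453), from 1003 ± 382 to 354 ± 202 in control cells (SD, n = 3). Dctpp1, which clears modified deoxycytidine triphosphates, fell by 1.21 and 1.44. Gart, of purine synthesis, fell by 1.24 and 1.59 in control and knockout cells. Cad, which carries the first steps of pyrimidine synthesis, fell by 1.05 in control cells and fell by 1.64 in knockout cells. Mthfd1, of one-carbon metabolism, fell by 1.68 in knockout cells, and its estimate in control cells was -1.16 ± 0.30 (adjusted p = 0.0512). The gene that rose in both was Rrm2b, the p53-inducible small subunit of ribonucleotide reductase, by 0.93 ± 0.21 (adjusted p = 0.0330) and 0.86 ± 0.21 (adjusted p = 0.0316), from 506 ± 169 to 949 ± 184 in control cells.

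Of 24 regulators of the G1 to S transition, Cdkn1a, which encodes the p21 inhibitor of cyclin-dependent kinases that also binds PCNA, rose the most. It lay at 481 to 948 on the control untreated arrays and at 5164 to 10009 on the control treated ones, and at 456 to 1167 and 7158 to 11157 in knockout cells. The rise was 3.51 ± 0.32 (limma adjusted p = 3.98e-04) and 3.58 ± 0.32 (adjusted p = 3.60e-04). E2f2 rose by 1.39 ± 0.38 (adjusted p = 0.0440) in knockout cells, and no other gene of this list was called in either comparison. E2f1, an activator E2F, changed by -0.38 ± 0.21 and -0.22 ± 0.21, and Ccne1, cyclin E1, by -1.14 ± 0.43 (adjusted p = 0.142) and -0.64 ± 0.43. The median of the list was -0.15 and -0.17. Of the 24 genes, 1 rose in control and 2 in knockout cells, against 4.21% and 6.73% of all genes called higher. Of 29 mitosis genes, Aurkb, the kinase of the chromosomal passenger complex, fell by 0.97 ± 0.22 (adjusted p = 0.0323) and 0.95 ± 0.22 (adjusted p = 0.0250), and the kinetochore gene Cenpf fell by 1.20 ± 0.24 (adjusted p = 0.0144) in knockout cells. The median of the mitosis list was -0.47 in both genotypes, and Mki67, the proliferation antigen, changed by -0.12 ± 0.20 and -0.28 ± 0.20. Of the 29 mitosis genes, 1 fell in control and 2 in knockout cells, against 2.56% and 4.45% of all genes called lower. In the difference of responses 0 genes of these 4 lists were called, as were 0 of all genes.

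Some markers of other cell types moved with treatment. For all genes tested the shares called were 2.56% lower and 4.21% higher in control cells and 4.45% and 6.73% in knockout cells. Of 7 tested macrophage markers Cd14, the lipopolysaccharide co-receptor, rose by 2.63 ± 0.46 (limma adjusted p = 0.0106) and 3.47 ± 0.46 (adjusted p = 0.00215). It was the 1 macrophage marker called in either genotype: the median of the 7 was 1.13 in control cells, with 1 estimate below 0 (-0.35), and 0.34 in knockout cells, with 2 below 0 (the lowest -0.74). Summed signals add linear intensities, so bright genes weigh most in them and they do not show a rise of the whole list. The summed signal of the 12 macrophage markers with a probe set was 1694 to 3155 in control untreated, 3910 to 11557 in control treated, 2001 to 2845 in knockout untreated and 5213 to 14533 in knockout treated cells, while the complement genes C1qa and C1qc, which mark tissue macrophages, stayed at or below 13.8 on all arrays. The summed B lineage signal was 708 to 1224 untreated and 498 to 628 treated in control cells and 863 to 1309 and 488 to 855 in knockout cells, with 4 of 9 genes tested and 0 called. Of these 4, all had estimates below 0 in control cells, with a median of -0.96. In knockout cells 2 were below and 2 above 0, with a median of -0.27. Of the 15 progenitor markers, the transcription factor gene Irf8 fell by 1.39 ± 0.31 (adjusted p = 0.0292) and the inhibitory Fc receptor gene Fcgr2b rose by 1.46 ± 0.36 (adjusted p = 0.0427) in control cells, and 0 were called in knockout cells. Estimates were below 0 for 12 of the 15 in control and 12 of the 15 in knockout cells, against 53.2% and 51.8% of all genes. The medians of the 15 were -0.25 and -0.42. Their summed signal, in which bright genes weigh most, overlapped between all 4 groups, between 97133 and 287619. Of 8 erythroid markers 1 was called in control cells, Car1, which fell by 1.21, and 3 of the 8 had estimates above 0, up to 1.49, with a median of -0.57. In knockout cells 0 of the 8 were called, and 3 had estimates above 0. Of 5 mast cell and basophil markers Cpa3 fell by 1.23 in knockout cells, where 5 of 5 estimates were below 0 with a median of -0.46, and 0 were called in control cells. Of 5 markers of stroma and endothelium Vcam1 rose by 2.68 in knockout cells, where 3 of 5 estimates were below 0 with a median of -0.15, and 0 were called in control cells. The part of these shifts in the changes of the replication genes was not tested.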

How the data were processed

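Messenger RNA was measured on 12 single-color Affymetrix arrays. The authors deposited a linear intensity for each probe set from MAS5, per the processing notes of the submitters, with no version or build given in the sources used here. All 12 columns belong to the 12 samples, and 0 were left out. The members, gene lists and settings were chosen with earlier results of these data known.

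Intensities were taken as log2(intensity + 13), where 13 is the 20th percentile of all values, rounded, so changes of dim genes are understated. Probe sets that read over 70.5, the overall median, on 3 arrays or more were kept. The set with the highest mean log2 stood for a gene, and cross-hybridizing sets (marked _x_at) were used only if no other was left. A linear model of group plus array date was fitted to all 11815 genes with limma 3.58.1 (R 4.3.3), with 6 residual and 3.96 prior degrees of freedom, Benjamini-Hochberg adjustment over all genes and a threshold of 0.05, and the script was tested on simulated data. Arrays were paired by the date in their titles. Deviations from group means correlated at 0.357 to 0.753 for the 18 same-date pairs of arrays and at -0.661 to 0.399 for 36 other pairs. These ranges overlap. Deviations within a group also sum to 0, which by itself lowers correlations between dates, so the check cannot settle the pairing. Every member is named, and of each other list at most 4 called genes per comparison, by smallest adjusted p. A gene named for 1 genotype may be given in the other too. E2f1, Ccne1 and Mki67 were named after their values were seen. The number of arrays limits the precision. Alternatives are given in the closing section. Plots used matplotlib 3.10.9 under Python 3.11.15.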

Additional observations from a re-analysis of the deposited data

How the results depend on the processing

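The count of replication genes called after treatment depended on the setting. From 5 in control cells it went to 0 without the replicate block for date, 2 with a pseudocount of 1, 0 without the filter on low values, 3 with arrays centred on the median, 3 with the mean over probe sets, 2 with probe sets tested singly, 12 with array weights and 1 with only the 2 groups compared. The share of all genes called lower, 2.56% in the main fit, moved as well. In the same order it was 0.254%, 1.97%, 0.731%, 2.38%, 2.76%, 1.54% (of probe sets), 9.33% and 0.432%. The count was 3 with _s_at sets also set aside, against 2.51% of all genes called lower, an alternative chosen after seeing the data. From 5 in knockout cells the count went to 0 without the block, 2 without the filter, 8 with a filter on all arrays, 9 with array weights and 1 with only 2 groups. The share of all genes called lower was 0.516%, 1.42%, 7.56%, 9.35% and 1.63% in that order, against 4.45% in the main fit. Without 1 array the ranges were 0 to 8 in control and 0 to 9 in knockout cells. Over the same fits 0.576% to 3.8% and 1.18% to 6.52% of all genes were called lower. In the other 3 comparisons 0 replication genes were called in every setting run.

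The median log2 change of the replication genes stayed below 0 in every setting, from -0.77 to -0.41 in control and from -0.62 to -0.39 in knockout cells. The median difference of responses, 0.10, reversed to -0.00036 with arrays centred on the median and to -0.055 without the control treated array of date 2, with a range of -0.055 to 0.254 over the fits without 1 array. The median of knockout against control lay between 0.05 and 0.18 in untreated cells and between 0.13 and 0.36 in treated cells over the settings run, with its highest treated value where _s_at sets were also set aside. Centring moved the median of all genes in knockout cells from -0.02 to -0.13 and that of the replication genes to -0.60. Of 4041 alternative values of single members, 246 crossed 0 with no call. MAS5 values of dim probe sets, such as those of Tyms, are unstable.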
